A study of Mus musculus with 10 samples.

Results

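The core loop of the circadian clock was examined in the femur of mice after 24 h of hindlimb unloading. Its 10 genes were Per1, Per2, Per3, Cry1, Cry2, Arntl (also called Bmal1), Clock, Npas2, Nr1d1 and Nr1d2. Members were all gene probes of the array whose gene name, or the gene of whose accession, was among these 10. The choice gave 18 of the 41174 gene probes, all 18 of which were tested, and 10 of the 18955 genes with a symbol that were tested.

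The unloaded group held 5 male ICR mice, an outbred stock, aged 6 months, which hung by the tail in a 45° head-down tilt for 24 h so that the hind legs bore no weight. The control group held 5 male ICR mice of 6 months that walked freely. All 10 animals lived in single cages with a light-dark cycle of 12:12 h that was reversed, have no transgene or drug in their labels, and were separate biological replicates with 1 femur array each. The comparison asks which transcripts of the bone differ after 1 day without load. The hour at which the bones were taken was not given in the sources used here, and from a single time point a change in the level of a rhythm and a shift of its phase cannot be told apart.

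The mammalian clock is a feedback loop of transcription. The proteins Arntl and Clock, or Npas2 in place of Clock, bind E-boxes and activate the Per and Cry genes, whose proteins return to the nucleus and inhibit that activation. A second loop runs through Nr1d1 and Nr1d2, the nuclear receptors REV-ERB alpha and beta, which repress Arntl and compete with the ROR receptors for the same DNA element. Bone cells have a clock of their own, and Per1 is besides an acute target of glucocorticoids and of cAMP signalling in many mouse tissues.

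Signals are log2 values relative to the 75th percentile of the array, so that 0 stands for that percentile, and every difference is unloaded minus control. Values of different probes are not comparable as levels. The bone markers Bglap and Col1a1, osteocalcin and the main collagen of bone, averaged 7.26 and 6.96 in unloaded femurs, against 7.22 and 6.88 in control femurs, so both lay far above the array's 75th percentile. The arrays lay on 3 slides. Slide 3 held unloaded animals 4 and 5, slide 2 unloaded animals 1 to 3 and control 5, and slide 1 controls 1 to 4, so slide and group could be separated within slide 2 alone. The array of unloaded animal 5 stood apart, with a median correlation of 0.973 with the others, against 0.985 to 0.988 for the other arrays. Marrow transcripts were abundant as well, with neutrophil markers summing to 383.1 to 427.5 times the 75th percentile in unloaded and 359.9 to 439.7 in control femurs. In such a mixture fewer cells of a type and less RNA per cell cannot be told apart.

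Per1 had the largest difference of the 10 genes and was the only member whose groups did not overlap, but no clock gene passed the test over all probes. Limma called 0 of the 10 clock genes at a Benjamini-Hochberg adjusted p below 0.05. Over all 38629 tested probes it called 1, Ddit4, a stress-induced inhibitor of mTOR signalling, which is 0.00259% in either direction, 0.00259% among rises and 0% among falls. At an unadjusted p below 0.05, limma gave 4 of the 10 genes, namely Per1, Npas2 and Nr1d1 with higher and Arntl with lower values in unloaded femurs. The share over all genes was 15.8%, and over all probes 16.1%. The 4 depended on the processing: Per1 alone remained under normexp background correction, cyclic loess and slide as a fixed block, and Per1 with Nr1d2 under quantile normalization. Groups that did not overlap were found for 1 of the 10, beside 3.3% of all genes. Of the clock genes 5 had a positive and 5 a negative difference, with a median of 0.09, beside 0.05 over all genes, of which 60.35% were positive.

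**Figure D1:**
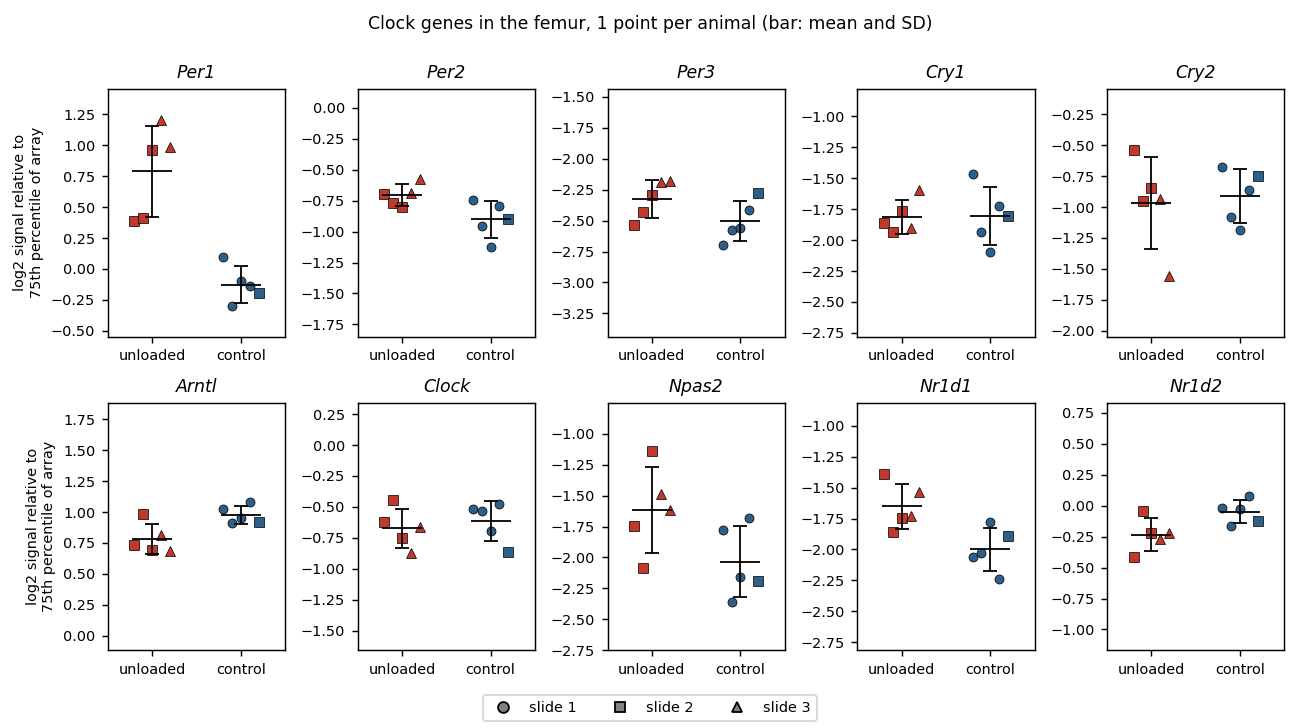
Signal of the 10 clock genes in each animal, with 1 panel per gene; the vertical axis is the log2 signal relative to the 75th percentile of the array and spans the same range in each panel. Unloaded animals (red, left) and controls (blue, right) are points shaped by slide, and bars give mean and SD (n = 5 each). In the Per1 panel all unloaded points lie above all control points, and in the other 9 panels the groups overlap.

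Per1 encodes an inhibitor of Arntl and Clock and can be induced quickly by signals from outside the cell. The sequence upstream of its first RefSeq start is shown because it holds matches to the letters of the E-box, the D-box and the REV-ERB/ROR element. The last was searched as the letters AGGTCA alone, and whether any match is used was not tested. The window of a second Per1 start held 0 E-boxes, 0 D-boxes and 0 REV-ERB/ROR elements. The upstream sequence of Per3, the paralogue with the smaller difference, is shown for comparison. Both are the 250 bases before a transcription start in RefSeq, assembly GRCm38.p6. That of Per1 lies at chr11:69098699-69098948 on the plus strand and that of Per3 at chr4:151044666-151044915 on the minus strand. Capitals mark the E-box, the D-box and the REV-ERB/ROR element, in the order in which Per1 has E-box, REV-ERB/ROR element on the opposite strand and D-box. Per3 has D-boxes only.
Per1: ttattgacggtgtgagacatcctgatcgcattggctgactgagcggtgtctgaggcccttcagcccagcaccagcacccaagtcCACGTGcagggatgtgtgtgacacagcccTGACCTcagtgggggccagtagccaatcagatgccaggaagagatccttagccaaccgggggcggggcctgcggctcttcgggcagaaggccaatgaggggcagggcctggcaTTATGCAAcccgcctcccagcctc
Per3: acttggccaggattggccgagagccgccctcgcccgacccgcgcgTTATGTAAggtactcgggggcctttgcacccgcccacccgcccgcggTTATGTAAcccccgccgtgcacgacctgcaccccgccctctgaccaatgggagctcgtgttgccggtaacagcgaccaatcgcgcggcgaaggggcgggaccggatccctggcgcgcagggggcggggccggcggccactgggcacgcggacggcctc

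Motifs were searched on both strands in windows of 250 bases before to 50 after the start, which were at hand for 9 of the 10 genes (not Per2). The E-box CACGTG, bound by Arntl with Clock, stood at position -166 of Per1 and at -60 of Cry1 and was found in 7.15% of the 32851 windows of all genes. The D-box (TTATGTAA or TTATGCAA), bound by Dbp, Tef, Hlf and the repressor Nfil3, stood at -24 of Per1 and at -205 and -158 of Per3, and in 1.66% of all windows. The element AGGTCA of the REV-ERB and ROR receptors stood at -137 of Per1, 32 bases after an Arntl start, at -119 of a Clock start and at -77 of Nr1d2, and in 16.3% of windows. The cAMP response element TGACGTCA was in no member's window and in 1.79% of all, while its core TGACG, which it contains, stood at -246 of Per1, at -132 of a second Per1 start, at -8 of Cry1 and at -209 of Cry2, and in 20.8% of windows. The glucocorticoid response element, searched as AGAACA and TGTTCT with 3 bases between them, was in no member's window and in 0.00913% of all. These matches describe letters in a window, not binding.

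Per1 had log2 signals of 0.39, 0.41, 0.96, 1.21 and 0.98 in unloaded animals 1 to 5, against 0.10, -0.30, -0.10, -0.14 and -0.19 in controls 1 to 5. The lowest unloaded animal was above the highest control, and among the unloaded animals 1 and 2 lay well below the other 3. The means were 0.79 ± 0.37 in unloaded and -0.13 ± 0.15 in control femurs (SD, n = 5 each), a difference of 0.92 with an SE of 0.16 and a 95% interval of 0.58 to 1.25, or 1.89-fold. Limma gave an adjusted p of 0.153 over all probes, so the difference was not called. The exact two-sided permutation test over the 252 assignments of the arrays was run on each of the 10 genes, with no adjustment. It gave p = 0.00794 for Per1, the smallest it can give, and values below 0.05 also for Nr1d1 (exact p = 0.0159), Arntl (exact p = 0.0317), Per2 and Nr1d2 (exact p = 0.0397 each). Npas2 had an exact p of 0.0556. The permutation was not run on other genes, so no share over all genes can be set beside these values. Among 18955 genes Per1 ranked 6 by p and 6 by the size of a positive difference, and its probe ranked 12 of 38629 by p. On slide 2, unloaded animals 1 to 3 lay above control 5 by a mean of 0.78. With slide as a fixed block limma gave that difference an unadjusted p of 0.00736 and an adjusted p of 0.736. Without the array of unloaded animal 5 the difference was 0.87.

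Among 8 glucocorticoid-induced genes, 1 of the 7 tested was called, and all 7 had positive differences, with a median of 0.31. Over all genes 60.35% were positive. The called gene was Ddit4, the only probe called over all, and these genes were added after their values were seen. The values are therefore a description and not a test. The summed levels of the 7 (linear, in units of the 75th percentile) were 55.8 to 71.9 in unloaded and 38.1 to 48.5 in control femurs and did not overlap. Without Ddit4, which carries much of the sum, they were 35.9 to 43.5 in unloaded and 27.0 to 34.5 in control femurs. Ddit4 rose by 1.17 (SE 0.12, limma adjusted p = 0.00794), and Errfi1, an inhibitor of EGF receptor signalling, had a difference of 0.61 (adjusted p = 0.218). Fkbp5, a co-chaperone of the glucocorticoid receptor, had 0.20 (adjusted p = 0.399), while the kinase Sgk1 had 0.08 (adjusted p = 0.720) and the metallothionein Mt1 0.03 (adjusted p = 0.896). Mt2, also a metallothionein, had 0.31 (adjusted p = 0.283). An unadjusted limma p below 0.05 was found for 4 of the 7, beside 15.8% of all genes. The osteoblast and osteocyte markers had a median difference of 0.06, close to that of all genes. The sums of the 9 measured on all arrays, 182.6 to 207.5 in unloaded and 167.1 to 181.3 in control femurs, did not overlap, but without Col1a1 they did (57.4 to 78.9 and 47.9 to 62.7), and limma called 0 of the 10 and gave 1, the osteocyte gene Mepe, an unadjusted p below 0.05. The summed levels of the other 10 cell type lists overlapped between the groups. The part of either list in the Per1 difference was not tested.

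Per2, the paralogue whose loss shortens and then abolishes behavioural rhythms in mice, had signals of -0.69, -0.77, -0.80, -0.69 and -0.58 in unloaded animals 1 to 5, against -0.74, -0.96, -1.12, -0.79 and -0.90 in controls 1 to 5. The unloaded values lay in a narrow band at and above the top of the control range, and the groups overlapped through controls 1 and 4. The difference was 0.20 (SE 0.10, 95% interval -0.01 to 0.40, limma adjusted p = 0.329). A second Per2 probe gave -0.01 (adjusted p = 0.952), so the sign rested on the probe.

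Per3, which is not needed for the loop to run in mice, had signals of -2.54, -2.43, -2.29, -2.19 and -2.18 in unloaded animals 1 to 5 and of -2.70, -2.57, -2.56, -2.41 and -2.27 in controls 1 to 5. The groups overlapped over most of their ranges. The difference was 0.18 (SE 0.11, limma adjusted p = 0.397), and on slide 2 alone it was -0.15, the opposite sign.

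Cry1 and Cry2 encode the cryptochromes, the stronger repressors of Arntl and Clock, and neither differed beyond the spread of the animals. Cry1 had signals of -1.86, -1.93, -1.76, -1.90 and -1.60 in unloaded animals and -1.47, -1.94, -2.09, -1.73 and -1.81 in controls, with a difference below 0.01 in size and a 95% interval of -0.26 to 0.26 (limma adjusted p = 0.985). Control 1 was the highest and control 3 the lowest of the 10 animals, so the unloaded values lay inside the control range. The dimmer Cry1 probe gave -0.18 (adjusted p = 0.396). It was well above background on 4 of the 5 unloaded arrays and on all 5 control arrays. Cry2 had signals of -0.54, -0.95, -0.85, -0.94 and -1.56 in unloaded animals and -0.68, -1.08, -1.18, -0.86 and -0.75 in controls, with a difference of -0.06 (95% interval -0.41 to 0.30, adjusted p = 0.868). The low value of -1.56 came from unloaded animal 5, whose array stood apart, and without it the Cry2 difference was 0.09. The second Cry2 probe gave -0.12 (adjusted p = 0.507), and on it animal 5 read -1.11, within the other 4 unloaded animals.

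Arntl, the partner that both Clock and Npas2 need and the member whose loss alone stops the clock in mice, was lower in unloaded femurs without passing the test. It had signals of 0.74, 0.98, 0.69, 0.82 and 0.68 in unloaded animals 1 to 5, against 1.02, 0.91, 0.95, 1.08 and 0.92 in controls 1 to 5. Unloaded animal 2 lay among the controls, and the other 4 unloaded animals lay below all 5 controls. The means were 0.78 ± 0.12 in unloaded and 0.98 ± 0.07 in control femurs (SD, n = 5 each), a difference of -0.20 (SE 0.09, 95% interval -0.39 to -0.0013, limma adjusted p = 0.308).

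Clock, a histone acetyltransferase as well as a transcription factor, gave no single direction over its 4 probes. On the brightest probe it had signals of -0.62, -0.45, -0.75, -0.87 and -0.66 in unloaded animals and -0.51, -0.53, -0.69, -0.47 and -0.86 in controls, a difference of -0.06 (SE 0.11, limma adjusted p = 0.790) with overlapping groups. Of the other 3 probes, A_52_P161365 gave -0.02 and A_52_P334677 gave -0.16. The third, A_52_P279391, is listed under a cDNA clone rather than a RefSeq transcript and gave 0.43 (unadjusted p = 0.0140, limma adjusted p = 0.256). Deviations from the group means of these 4 probes correlated with r between -0.49 and 0.72 over the 10 arrays. The highest r was that of A_52_P161365 with A_52_P279391, and the brightest probe followed none of the others above 0.43.

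Npas2, which can stand in for Clock, had signals of -1.75, -2.09, -1.14, -1.49 and -1.62 in unloaded animals 1 to 5, against -1.78, -2.36, -2.16, -1.68 and -2.19 in controls 1 to 5. Unloaded animals 3, 4 and 5 were the highest of all 10 and animals 1 and 2 lay within the controls, and the same 3 animals were the highest for Per1. The means were -1.62 ± 0.35 in unloaded and -2.03 ± 0.29 in control femurs (SD, n = 5 each), a difference of 0.42 with an SE of 0.17, or 1.33-fold (limma adjusted p = 0.284). Arntl and Npas2, the partners of a heterodimer, thus had differences of opposite sign.

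**Figure D2:**
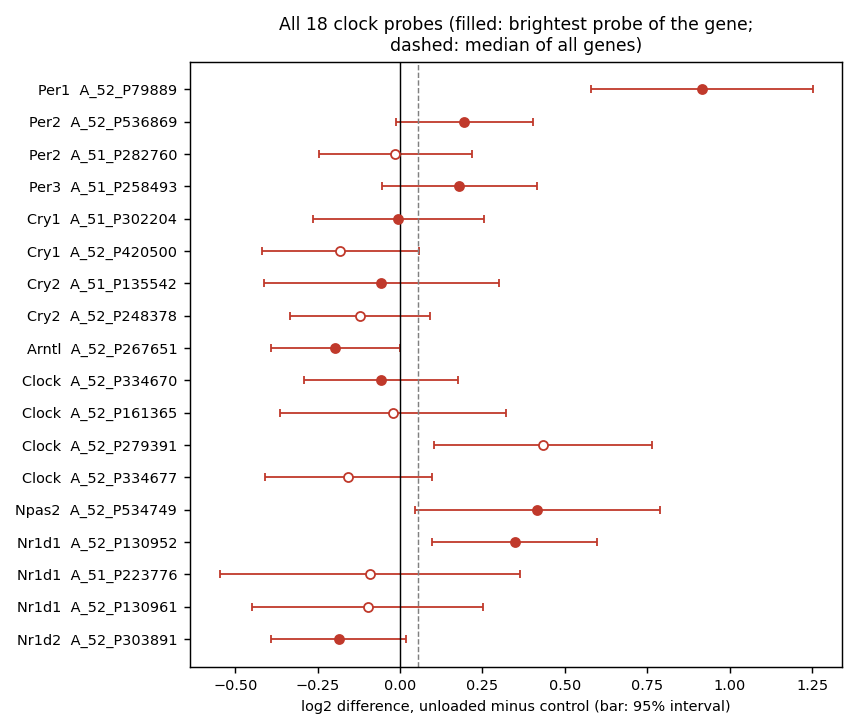
Difference of each of the 18 clock probes, with the log2 difference (unloaded minus control) on the horizontal axis and 95% intervals from limma as bars. Filled points are the brightest probe of each gene, which stands for it, open points the other probes, and the dashed line the median of all genes at 0.05. The interval of Per1, from 0.58 to 1.25, lies apart from those of its paralogues, and the probes of Clock and of Nr1d1 fall on both sides of 0.

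Nr1d1 and Nr1d2 repress Arntl, and their main probes had differences of opposite sign. Their 250 upstream bases are shown because they hold matches to different motifs. Nr1d1 lies at chr11:98775378-98775627 and Nr1d2 at chr14:18239107-18239356, both on the minus strand of GRCm38.p6 (RefSeq). Capitals mark the E-box variant CACGTT, here read on the opposite strand at -28 of Nr1d1, and the element AGGTCA at -77 of Nr1d2. The variant was in 4.68% of all windows.
Nr1d1: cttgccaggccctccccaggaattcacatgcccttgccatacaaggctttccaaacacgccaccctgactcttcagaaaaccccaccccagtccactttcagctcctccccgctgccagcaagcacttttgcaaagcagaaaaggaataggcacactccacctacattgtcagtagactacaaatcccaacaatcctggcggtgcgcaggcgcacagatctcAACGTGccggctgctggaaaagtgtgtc
Nr1d2: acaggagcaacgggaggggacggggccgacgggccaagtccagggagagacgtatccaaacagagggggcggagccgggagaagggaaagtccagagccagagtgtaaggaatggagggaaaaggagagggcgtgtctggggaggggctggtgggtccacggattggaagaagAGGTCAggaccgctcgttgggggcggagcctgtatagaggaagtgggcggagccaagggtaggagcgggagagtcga

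On its brightest probe, A_52_P130952, Nr1d1 had signals of -1.39, -1.85, -1.75, -1.73 and -1.54 in unloaded animals 1 to 5, against -2.06, -2.03, -1.78, -2.24 and -1.89 in controls 1 to 5. Control 3 lay inside the unloaded range, and the other 4 controls lay below all 5 unloaded animals. The means were -1.65 ± 0.18 in unloaded and -2.0 ± 0.18 in control femurs (SD, n = 5 each), a difference of 0.35 with an SE of 0.12, or 1.27-fold (limma adjusted p = 0.252). The other Nr1d1 probes did not share that direction. A_51_P223776 gave -0.09 (adjusted p = 0.828) and A_52_P130961, listed under a cDNA clone, gave -0.10 (adjusted p = 0.758), and deviations of the 3 probes correlated with r of -0.22 to 0.18. The strand read by each probe was not checked here, and Nr1d1 overlaps the thyroid hormone receptor gene Thra on the other strand in mammals.

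Nr1d2 had signals of -0.42, -0.04, -0.22, -0.27 and -0.22 in unloaded animals 1 to 5, against -0.01, -0.16, -0.02, 0.08 and -0.12 in controls 1 to 5. As for Arntl, unloaded animal 2 lay among the controls and the other 4 unloaded animals below all 5 controls. The means were -0.23 ± 0.13 in unloaded and -0.05 ± 0.09 in control femurs (SD, n = 5 each), a difference of -0.19 (SE 0.10, 95% interval -0.39 to 0.02, limma adjusted p = 0.337).

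Whether paralogues differed in response was tested per animal, as the log2 signal of a gene minus that of its paralogue, in 6 pairs with an exact two-sided permutation test and Benjamini-Hochberg adjustment over the 6. The pairs were chosen with the difference of Per1 known. Per1 minus Per2 was 1.08, 1.18, 1.76, 1.89 and 1.56 in unloaded animals 1 to 5, against 0.84, 0.66, 1.02, 0.65 and 0.70 in controls 1 to 5. The groups did not overlap, with all 5 unloaded animals above all 5 controls. Only the shift between the groups can be read, since the probes differ. The shift was 0.72 (exact p = 0.00794, adjusted p = 0.0238), with means of 1.50 ± 0.35 in unloaded and 0.78 ± 0.16 in control femurs. It was 0.93 with the second Per2 probe, and without control 2 or without control 4 the adjusted exact p was 0.0635.

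Per1 minus Per3 was 2.92, 2.84, 3.25, 3.39 and 3.16 in unloaded animals, against 2.80, 2.28, 2.46, 2.27 and 2.08 in controls. The groups again did not overlap, with unloaded animal 2 just above control 1. The shift was 0.74 (exact p = 0.00794, adjusted p = 0.0238), and the means were 3.11 ± 0.23 in unloaded and 2.38 ± 0.27 in control femurs. Per2 and Per3 differed from each other by 0.02 in response (adjusted exact p = 0.921). Of the 3 Period genes, Per1 thus had the larger shift against both others. The pairs were chosen with the difference of Per1 known, and the adjustment does not allow for that choice. The p-values of the Per1 pairs therefore describe that difference again and are no separate test of it. A scale shift shared by the probes of an array does not enter these values. The test permuted arrays without regard to slide, and slide and group could be separated within slide 2 alone.

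Nr1d1 minus Nr1d2 was -0.98, -1.81, -1.53, -1.46 and -1.31 in unloaded animals 1 to 5, against -2.05, -1.87, -1.76, -2.32 and -1.77 in controls 1 to 5. Unloaded animal 2 overlapped the controls. The shift was 0.53 (exact p = 0.0238, adjusted p = 0.0476). It was 0.09 with either of the other Nr1d1 probes (adjusted exact p = 0.921 for both), and the call was also lost under normexp background correction (0.41, adjusted exact p = 0.127) and without any of controls 1, 2 and 4 or unloaded animals 1 and 5 (adjusted exact p of 0.0635 to 0.0794). Clock minus Npas2 was shifted by -0.47 with means of 0.94 ± 0.48 in unloaded and 1.42 ± 0.25 in control femurs (adjusted exact p = 0.143). Without unloaded animal 2 that shift was -0.65 (adjusted exact p = 0.0159). Cry1 minus Cry2 was shifted by 0.05 (adjusted exact p = 0.921) and by -0.15 without unloaded animal 5, whose value of -0.04 lay above all others.

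**Figure D3:**
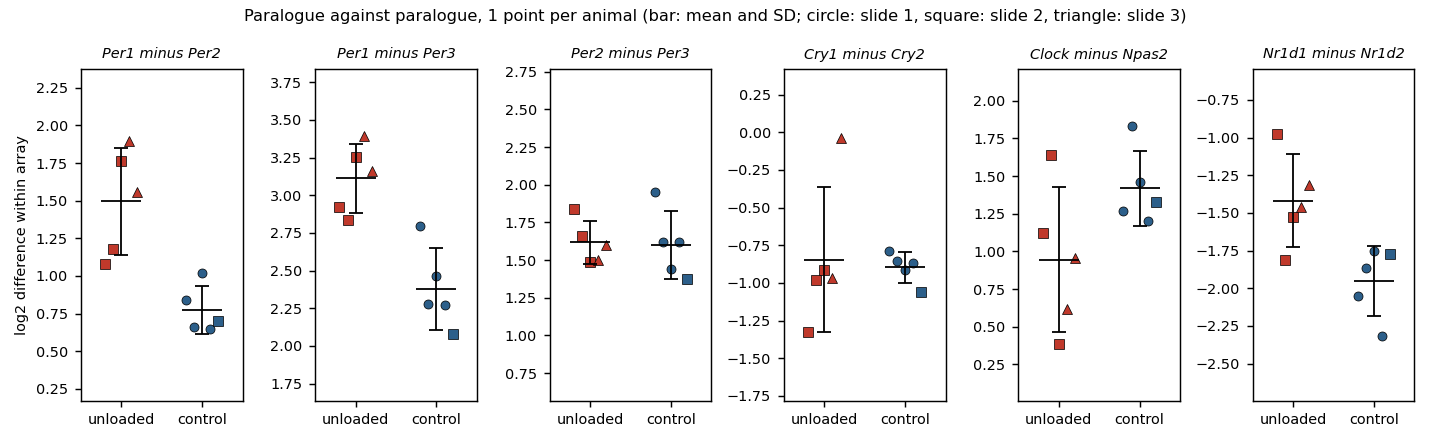
Log2 signal of a clock gene minus that of its paralogue in each animal, with 1 panel for each of the 6 pairs; unloaded animals are red and left, controls blue and right, point shapes give the slide, and bars are mean and SD (n = 5 each). Panels span equal ranges on the log2 axis. The groups are apart for Per1 minus Per2 (shift 0.72) and Per1 minus Per3 (0.74) and overlap in the other 4 panels.

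Members were then compared from animal to animal, as deviations from the group means over the 10 arrays in all 45 pairs. No pair passed after adjustment over the 45 (smallest adjusted permutation p 0.363 for Pearson's r and 0.643 for Spearman's rho), and 3 had an unadjusted p below 0.05 for Pearson's r. Per2 and Cry1, both E-box targets, had r = 0.86 (exact p = 0.00806) and rho = 0.76 (permutation p = 0.0283), and r was 0.67 without the 2 arrays farthest from the median of the first-named gene. With the dimmer Cry1 probe r was -0.26. Arntl and Nr1d2 had r = 0.73 (exact p = 0.0435) and rho = 0.64 (permutation p = 0.0619), but r was 0.19 without the 2 farthest arrays. Leaving out arrays by their Arntl values also narrows the range of Arntl, so whether the relation rested on those arrays cannot be told. Nr1d1 and Nr1d2 had r = -0.69 (exact p = 0.0422) and rho = -0.65 (permutation p = 0.0664), with -0.72 without the 2 farthest. That relation is of the brightest Nr1d1 probe alone. The Nr1d1 probes correlated among themselves with r of only -0.22 to 0.18, and the others were not tried against Nr1d2. With deviations taken from the mean of each group within each slide, which leaves 6 residual degrees of freedom, r was 0.87 for Per2 with Cry1, 0.72 for Arntl with Nr1d2 and -0.67 for Nr1d1 with Nr1d2.

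The 5 genes whose deviations followed Per1 most closely among 18908 genes over the 10 arrays were Olfr798 (r = 0.945), Olfr640 (0.938), Otud1 (0.932), Hmgb2 (0.930) and Cstdc6 (0.928). None is a clock gene, and the nearest of them in difference was Cstdc6 with 0.51 (SE 0.16, limma adjusted p = 0.248). Among those that followed Arntl were Kcng1 (0.947), Kifc3 (0.939), Cacnb3 (0.910) and Ankrd10 (0.902). With 10 arrays and that many genes, these ranks are a description only.

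The genes around the loop were described through 4 lists, and limma called 0 genes in each. Counts at an unadjusted p below 0.05 in these lists stand beside 15.8% over all genes in either direction. Of all probes at that threshold 3939 were higher and 2286 lower, but 1386 and 4474 under median scaling. No direction is therefore read from the counts. Of the 12 auxiliary transcription regulators 8 had positive and 4 negative differences, with a median of 0.11, and 1 higher and 1 lower had an unadjusted p below 0.05. Timeless, needed for replication fork protection in mammals, had the smallest p of the list, with 0.54 ± 0.20 in unloaded and 0.81 ± 0.07 in control femurs, groups that did not overlap (difference -0.27, SE 0.11, limma adjusted p = 0.271). Bhlhe41, an E-box repressor also called Dec2, had a difference of 0.25 (adjusted p = 0.285). Rora, an activator of Arntl, had 0.15 (adjusted p = 0.388), and Nfil3, the D-box repressor, had 0.15 (adjusted p = 0.424). Dbp, the D-box activator and a direct target of Arntl and Clock, averaged 3.06 ± 0.27 in unloaded and 3.08 ± 0.21 in control femurs (SD, n = 5 each), a difference of -0.02 (adjusted p = 0.940). Ciart, a repressor of the loop that often cycles strongly, had 0.36 with an SE of 0.33. Its probe was dim, with -3.31 ± 0.84 in unloaded and -3.67 ± 0.38 in control femurs, which limits its precision.

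Of the 22 genes that modify clock proteins, 8 had positive and 14 negative differences, with a median of -0.05. An unadjusted p below 0.05 was found for 4 of the 22, beside 15.8% of all genes, and all 4 were lower in unloaded femurs. These were Ncor1, the corepressor that REV-ERB receptors recruit (-0.48, limma adjusted p = 0.297), the deacetylase Sirt1 (-0.39, adjusted p = 0.275), the ubiquitin ligase Fbxw7 (-0.27, adjusted p = 0.262) and the AMPK subunit Prkaa1 (-0.23, adjusted p = 0.283). The groups of all 4 overlapped. Unloaded animals spread far more than controls for Ncor1 (SD 0.56 against 0.11) and Sirt1 (SD 0.39 against 0.05). The kinases that mark Period proteins for degradation differed little, with 0.05 for Csnk1d (adjusted p = 0.783) and -0.02 for Csnk1e (adjusted p = 0.937).

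Of the 14 genes of signals that reach the Per1 promoter 13 were tested (not Crtc1), 5 with positive and 8 with negative differences and a median of -0.15, and 1 higher and 2 lower had an unadjusted p below 0.05. Sik1, a kinase that is itself induced by cAMP and restrains the coactivators of Creb1, averaged 0.14 ± 0.13 in unloaded and -0.25 ± 0.18 in control femurs, a difference of 0.39 (SE 0.11, limma adjusted p = 0.221). Nr3c1, the glucocorticoid receptor, had -0.24 (adjusted p = 0.278). Atf1, a relative of Creb1, had -0.21 (adjusted p = 0.289), and the coactivator Crtc2 had -0.21 (adjusted p = 0.358).

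Of the 15 clock-controlled enzymes and regulators 7 had positive and 8 negative differences, with a median of -0.04, and 3 higher and 2 lower had an unadjusted p below 0.05. Tsc22d3, the glucocorticoid-induced leucine zipper, averaged 2.52 ± 0.23 in unloaded and 1.98 ± 0.29 in control femurs, a difference of 0.55 (SE 0.15, limma adjusted p = 0.218). The transcription factors Klf15 and Klf9 had 0.30 (adjusted p = 0.258) and 0.28 (adjusted p = 0.283). Nampt, the rate-limiting enzyme of NAD salvage, had -0.27 (adjusted p = 0.270). Tsc22d3 and Klf9 are known glucocorticoid-induced genes as well as clock outputs, and Tsc22d3 stands in both lists.

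**Figure D4:**
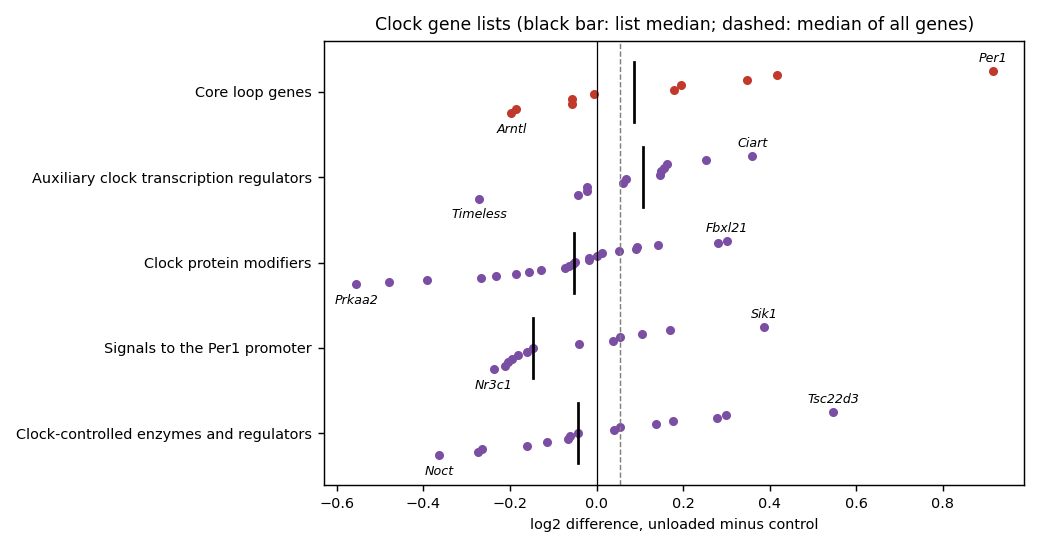
Log2 difference (unloaded minus control, horizontal axis) of each tested gene of the core loop (red) and of the 4 surrounding lists (purple), with 1 row per list. Black bars are list medians, the dashed line is the median of all genes at 0.05, and the genes at the ends of each row are named. Per1 at 0.92 has the largest difference of all lists shown, and the medians lie between -0.15 and 0.11.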

How the data were processed

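RNA of 10 femurs was measured on Agilent arrays of a single colour (Cy3), 1 per animal. Values start from linear spot intensity in the deposited scanner files. Per the file headers, the authors read the spots in version 9.1.3.1 of Agilent Feature Extraction, with detrending inside an array and none between arrays. The authors' deposited series matrix holds the same intensity (ratios of 0.995 to 1.005 to the processed signal), with column medians of 315, 269, 253, 311 and 291 for unloaded animals 1 to 5 and 335, 332, 303, 261 and 306 for controls 1 to 5. Its scale is therefore known, it is uncentred, and a single colour has no direction. It served as an alternative.

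Spots of a probe were averaged after 97 outlier spots were left out, and the log2 processed signal was taken relative to the 75th percentile of its array (637 to 903 intensity units). Tested probes were well above background on 4 or more arrays of a group and had values on 3 or more of each. Per array, 89.8% to 95.5% of spots were well above background, and precision is limited by there being 10 arrays. Of 41174 gene probes, 22951 were named by accession through a RefSeq gene list of GRCm38.p6, 6659 by a current and 3109 by an older name, and 8455 kept the file's name. The brightest tested probe stood for a gene.

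Groups were compared with limma 3.58.1 (lmFit, eBayes) in R 4.3.3, two-sided, over all 38629 tested probes, with Benjamini-Hochberg adjustment and a threshold of 0.05. Reading used data.table, version 1.17.8. Permutation tests and motif counts used scipy 1.17.1, numpy 2.4.6 and pandas 2.3.3, and figures matplotlib 3.10.9. The fit was tested on simulated arrays. Alternatives covered background correction, scaling, the probe filter, the variance model, array weights, slide, body weight, the replicate number, the probe and each array left out. The groups share replicate numbers, but deviations of same-numbered animals correlated between -0.14 and 0.18, so the numbers were not taken as pairs.

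The text names all 10 members, up to 4 genes of each surrounding list by p, and the 5 genes most alike to Per1 and to Arntl, of which 1 is not reported here. Dbp, Ciart, Csnk1d, Csnk1e, the marker genes and the glucocorticoid-induced genes were added after their values were seen. The members, lists and pairs were chosen with earlier results of these data known.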

Additional observations from a re-analysis of the deposited data

How the results depend on the processing

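No clock gene was called under any of the 26 alternatives. Per1 stayed positive in all 25 of its alternatives, between 0.78 and 1.02 (limma adjusted p of 0.0677 to 0.736), and Arntl (-0.29 to -0.12), Npas2 (0.30 to 0.53) and Nr1d2 (-0.28 to -0.11) did not change sign either. With the replicate number as a replicate block, Per1 gave 0.92 (limma adjusted p = 0.213), and 1 probe was called, as without it. The correlations of same-numbered animals gave no sign of pairing but, being so few, cannot exclude it. Signs turned as follows, and the cause was not tested. Under slide as a fixed block, and so within slide 2, Per3 gave -0.15 and Clock 0.25. Array weights gave 0.0492 for Cry2, and the mean of all probes 0.0490 for Clock. That mean kept the sign of Nr1d1 at 0.0527 (limma adjusted p = 0.814), against 0.35 on its brightest probe. It also kept the sign of Per2 at 0.0907 (adjusted p = 0.610), against 0.20 on its brightest probe. Other probes gave -0.0139 for Per2 (A_51_P282760), 0.43 for Clock (A_52_P279391), and -0.0978 (A_52_P130961) and -0.0919 (A_51_P223776) for Nr1d1. Leaving out each array in turn gave -0.0768 to 0.0803 for Cry1 and -0.16 to 0.0913 for Cry2. For the paralogue shifts it gave 0.62 to 0.82 for Per1 minus Per2, -0.0402 to 0.10 for Per2 minus Per3, -0.15 to 0.17 for Cry1 minus Cry2, -0.65 to -0.33 for Clock minus Npas2 and 0.42 to 0.63 for Nr1d1 minus Nr1d2. The call of Per1 minus Per3 held in all of its 13 tested alternatives. These changed the normalization or left out an array, and none took slide into account. Cry1 minus Cry2 was -0.0223 under normexp, -0.0121 within slide 2, and -0.13 and -0.0600 with the dimmer Cry1 probe against either Cry2 probe. Nr1d1 minus Nr1d2 was 0.41 under normexp and 0.0881 and 0.0939 with the other Nr1d1 probes. Per2 minus Per3 was -0.19 with the second Per2 probe, and Clock minus Npas2 was 0.0170 with A_52_P279391. The correlation of Per2 with Cry1 was -0.26 with the dimmer Cry1 probe. Probes called higher numbered 2 under a robust variance trend and under slide as a fixed block, 0 with body weight as a covariate and without variance moderation, and 0 to 2 with an array left out. Probes called lower numbered 1 under a robust trend and under slide as a fixed block. The median of the clock protein modifiers was -0.15 under median scaling and -0.0921 under slide as a fixed block and within slide 2. Of the 10 clock genes, 4 had an unadjusted p below 0.05, but 1 under normexp, cyclic loess and slide as a fixed block, 2 under quantile normalization and with body weight, and 2 to 5 with an array left out. These counts were added after seeing the data. Probes with an unadjusted limma p below 0.05 numbered 3939 higher and 2286 lower, but 1386 and 4474 under median scaling, 2079 and 2969 under quantile normalization, 2001 and 2978 under cyclic loess, and 1364 and 1866 under normexp, so no general direction was read. The median of all genes was 0.05, against -0.04 under median scaling. Normexp, body weight as a covariate and slide as a fixed block gave 3230, 3488 and 1815 probes at that threshold, against 6225. The dimmer Cry1 probe was near background, which limits its precision.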
